A study of Mus musculus with 8 samples.

Results

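The common gamma chain cytokine receptors are built from 8 receptor chain genes, Il2ra, Il2rb, Il2rg, Il4ra, Il7r, Il9r, Il15ra and Il21r. They were listed by name as the chains of the receptors for IL-2, IL-4, IL-7, IL-9, IL-15 and IL-21 and matched by symbol to the mouse Ensembl identifiers of the count table. These are 8 of the 54837 genes in the table, and all 8 were among the 18851 genes that passed the filter on low counts. RNA sequencing covered 8 libraries of splenic CD4 T cells, sorted after tamoxifen on 5 consecutive days in every group. The GFPhi cells (n = 3) came from mice with FSF-TIM-3 besides Foxp3-eGFP-Cre-ERT2 and were sorted as TIM-3+, FLAG+, GFP+ and FoxP3+. The GFPLow cells (n = 3) had that genotype too and were sorted as TIM-3+ and FLAG+ but GFP- and FoxP3-. The WT cells (n = 2) came from mice with Foxp3-eGFP-Cre-ERT2 alone and were sorted as GFP+ and FoxP3+ without TIM-3 and FLAG, so all groups share the Foxp3-driven eGFP and tamoxifen-activated Cre recombinase. The gates for WT differ from those of the transgenic groups, and an effect of the transgene and the selection by TIM-3 and FLAG cannot be told apart. Numbers of libraries follow their titles. The labels do not say whether each library of a group comes from a separate mouse. The titles give GFPhi and GFPLow libraries the same replicate numbers, and whether a shared number means a shared mouse is not stated. Tests were unpaired unless the replicate number is named as a block. Xist, the transcript of the inactive X chromosome, was at 236.7 CPM (read counts scaled to library size with TMM factors) in GFPhi library 3 and 183.8 CPM in GFPLow library 3, with 0.264 CPM or less in libraries 1 and 2 of both groups, so each of these groups holds more than 1 mouse. Whether libraries 1 and 2 of a group are separate mice is not known, and p-values measure the spread between these libraries. The age of the mice is not given in the sources used here.

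Receptors of this family sit in the membrane as a ligand-binding chain paired with the gamma chain, the product of Il2rg. The IL-2 and IL-15 receptors add a shared beta chain, the product of Il2rb, and an alpha chain, Il2ra or Il15ra. Ligand binding activates the kinases JAK1 and JAK3, which phosphorylate STAT factors, mainly STAT5 for IL-2, IL-7, IL-9 and IL-15, STAT6 for IL-4 and STAT3 for IL-21. Regulatory T (Treg) cells carry much Il2ra protein (CD25) and depend on IL-2 made by other T cells, whereas resting conventional T cells carry much IL-7 receptor and depend on IL-7 for survival.

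Total counts per library ran from 44446215 to 55388756. Havcr2, the gene of TIM-3, was at 1525, 1077 and 1791 CPM in GFPhi, at 260.1, 127.1 and 538.2 CPM in GFPLow, while WT stood at 0.876 and 0.172 CPM. Foxp3 was at 60.2 to 81.0 CPM in GFPhi, at 1.97 to 4.82 CPM in GFPLow, with 41.7 and 63.2 CPM in WT, which follows the labels. The organ label calls the GFPLow cells Treg, but all 6 Treg markers listed (Foxp3, Ikzf2, Ikzf4, Ctla4, Lrrc32 and Nrp1) were lower in them than in either FoxP3+ group, and their sum was 267.7 to 370.8 CPM in GFPLow against 1901 to 2020 CPM in GFPhi and 2250 to 3522 CPM in WT. WT library 1 stood apart, with 18599 genes detected against 21248 to 22185 elsewhere, a TMM factor of 0.694 against 1.04 to 1.07, and 15.2% of its counts in ribosomal protein genes against 6.12% to 6.97%. In WT library 2 Xist was at 242.2 CPM together with 6.16 CPM of the Y-linked gene Ddx3y, whereas each of the other libraries held 1 of these transcripts and 0.264 CPM or less of the other. For the 8 receptor genes, comparisons with WT are given against each WT library as well, and for other genes they are not. A single WT library has no spread of its own, and it was assumed to vary like the other groups.

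The IL-2 receptor alpha chain gene Il2ra (ENSMUSG00000026770, GRCm38 chromosome 2, 11642807 to 11693193, plus strand) had the largest log2 fold changes of the 8 genes in both comparisons with GFPLow. It was at 549.5, 572.5 and 610.6 CPM in GFPhi libraries 1 to 3, at 7.27, 11.6 and 16.3 CPM in GFPLow libraries 1 to 3, while WT libraries 1 and 2 stood at 517.4 and 662.4 CPM. The 3 GFPLow libraries were far below all 5 libraries of FoxP3+ cells, and the GFPhi values lay between those of the WT libraries. In GFPLow these values still rested on 389 to 839 reads per library. The means were 577.5 ± 30.9 CPM (SD, n = 3) in GFPhi and 11.7 ± 4.50 CPM (SD, n = 3) in GFPLow. The log2 fold change was 5.63 ± 0.35 (SE) in GFPhi against GFPLow, a 49.4-fold difference (adjusted p = 0.00103 in edgeR's quasi-likelihood test), and -5.66 ± 0.36 in GFPLow against WT (adjusted p = 0.00122). Of the 18851 genes tested, only 2 had a smaller p than Il2ra in each of these comparisons. Against WT library 2 alone GFPLow stood at -5.82 and against WT library 1 alone at -5.44. The call held in each of the 15 alternative analyses of either comparison. The CPM ratio of Il2ra to Foxp3 was 7.54 to 9.13 in GFPhi, 2.97 to 5.87 in GFPLow, and 12.4 and 10.5 in WT libraries 1 and 2, lowest in the GFPLow libraries. The part of remaining FoxP3+ cells in the Il2ra of GFPLow was not tested. In a sorted population fewer cells with a transcript and less transcript per cell cannot be told apart. An unassigned transcript model inside Il2ra on the same strand, Gm37881, was at 13.8, 11.6 and 13.9 CPM in GFPhi, at 0.112, 0.305 and 0.601 CPM in GFPLow, with 13.9 and 13.1 CPM in WT, and reads of these overlapping models may have been split between them.

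The 250 bases before the RefSeq start sites of Il2ra and Il7r are shown because these genes were the ones called in both comparisons with GFPLow, in opposite directions. Both are from RefSeq on GRCm38.p6, written 5′ to 3′ on the strand of the gene, Il2ra from chr2:11642542-11642791 on the plus strand and Il7r from chr15:9529877-9530126 on the minus strand. Capitals mark matches to any of 4 motifs searched on both strands.
Il2ra: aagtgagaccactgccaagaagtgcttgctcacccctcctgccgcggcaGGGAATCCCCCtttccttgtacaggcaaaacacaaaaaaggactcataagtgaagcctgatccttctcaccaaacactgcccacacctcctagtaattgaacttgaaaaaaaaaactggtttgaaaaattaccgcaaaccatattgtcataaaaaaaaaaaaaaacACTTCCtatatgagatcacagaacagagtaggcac
Il7r: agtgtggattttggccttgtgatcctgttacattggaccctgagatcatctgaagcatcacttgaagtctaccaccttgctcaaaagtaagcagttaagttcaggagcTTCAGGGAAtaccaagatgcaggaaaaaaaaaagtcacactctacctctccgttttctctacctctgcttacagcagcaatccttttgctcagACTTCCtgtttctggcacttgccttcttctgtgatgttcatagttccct
The motifs were GGAAGT for ETS factors, GGG and CC with any 5 bases between them for NF-kB, TTCNNNGAA for STAT factors and GTAAACA for forkhead factors. The Il2ra window held 2 overlapping NF-kB matches, from 201 to 191 bases before the start, and 1 ETS match at 35 to 30 bases. The Il7r window held 1 STAT match at 142 to 134 bases and 1 ETS match at 49 to 44 bases. Among all 32851 promoter windows of this length, 45.8% held the NF-kB letters, 19.7% the ETS letters, 7.02% the STAT letters and 3.17% the forkhead letters, so these matches are a description of the windows and no evidence of binding. Of the 8 genes, 7 had an entry, and Il2rb was not among them. The forkhead letters occurred in the window of Il21r, at 38 to 32 bases before its start, and in no other window of these 7 genes.

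Il2rb encodes the beta chain shared by the IL-2 and IL-15 receptors (ENSMUSG00000068227, chromosome 15, 78479256 to 78495271, minus strand). It was at 592.7, 488.7 and 446.7 CPM in GFPhi, at 121.1, 122.2 and 143.0 CPM in GFPLow, while WT libraries 1 and 2 stood at 165.2 and 506.6 CPM. All 3 GFPhi libraries were above all 3 GFPLow libraries, while the WT libraries differed from each other, library 2 lying among the GFPhi values and library 1 near the GFPLow values. The means of 509.4 ± 75.2 CPM in GFPhi and 128.8 ± 12.4 CPM in GFPLow (SD, n = 3 each) differed by 1.98 ± 0.38 (SE) on the log2 scale (adjusted p = 0.0379), a 3.96-fold difference. With any of the 6 GFPhi and GFPLow libraries left out the change stayed between 1.86 and 2.07 but was no longer called (adjusted p 0.105 to 0.181 in edgeR's test). The call was also lost with the replicate number as a block (1.997, adjusted p = 0.113 in edgeR's test). With GFPhi and GFPLow fitted alone the change was called (adjusted p = 9.59e-05), as it was by DESeq2 (adjusted p = 1.2e-05). Without WT library 1 it was called with an adjusted p of 9.09e-05, the SE being 0.12, and without WT library 2 with 7.98e-05. In GFPLow against WT the estimate of -1.38 ± 0.40 was not called by edgeR (adjusted p = 0.108) and was called by DESeq2 (adjusted p = 0.0122). It was -1.97 against WT library 2 alone and -0.34 against WT library 1 alone. NK cells also carry this chain, and the 6 NK markers listed summed to 5.31 to 7.17 CPM in GFPhi, to 22.7, 19.7 and 78.2 CPM in GFPLow libraries 1 to 3, and to 11.8 and 5.88 CPM in WT. Of the 5 tested, 1 was called lower in GFPhi than in GFPLow. Their part in Il2rb was not tested.

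Il2rg encodes the gamma chain common to all receptors of the family (ENSMUSG00000031304, chromosome X, 101264378 to 101268255, minus strand). It was at 892.1, 1031 and 1102 CPM in GFPhi, at 1044, 1068 and 1136 CPM in GFPLow, while WT stood at 795.2 and 967.0 CPM. The GFPhi and GFPLow libraries overlapped, and WT library 1 was the lowest of all 8. The log2 fold change of GFPhi against GFPLow was -0.10, with a 95% interval from -0.53 to 0.32, and that of GFPLow against WT 0.30, from -0.18 to 0.77, neither being called. Changes beyond these bounds lay outside the intervals. Against WT library 1 alone the estimates were 0.37 for GFPhi and 0.47 for GFPLow, where the median of all genes was itself at 0.38 and 0.33. Against WT library 2 alone they were 0.06 for GFPhi and 0.17 for GFPLow. A gene model that overlaps Il2rg on the same strand, Gm20489, had 0 to 6 reads per library.

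Il7r encodes the IL-7 receptor alpha chain, CD127 (ENSMUSG00000003882, chromosome 15, 9505788 to 9530176, minus strand), and its differences had the opposite sign to those of Il2ra and Il2rb in both comparisons with GFPLow. It was at 282.0, 244.5 and 368.7 CPM in GFPhi, at 668.9, 621.8 and 717.5 CPM in GFPLow, while WT stood at 242.2 and 239.9 CPM. All 3 GFPLow libraries were above the other 5, and among the FoxP3+ libraries GFPhi library 3 was highest. GFPhi averaged 298.4 ± 63.7 CPM and GFPLow 669.4 ± 47.9 CPM (SD, n = 3 each), a difference of -1.17 ± 0.20 (SE) on the log2 scale (adjusted p = 0.0247). GFPLow was 2.78-fold above WT (1.47 ± 0.23, adjusted p = 0.0151). The call of GFPhi against GFPLow held without GFPhi library 3 (-1.35, adjusted p = 0.048) or without either WT library, and was lost with any other library left out (-1.22 to -1.04, adjusted p 0.094 to 0.153). The call of GFPhi against GFPLow was also lost with the replicate number as a block (-1.184, adjusted p = 0.0719 in edgeR's test). With GFPhi and GFPLow fitted alone this difference was called (adjusted p = 0.00193), as it was by DESeq2 (adjusted p = 2.07e-07). The call of GFPLow against WT was lost with any GFPLow library left out (adjusted p 0.0596 to 0.0716). It was also lost with the replicate number as a block (adjusted p = 0.0811) and with GFPLow and WT fitted alone (adjusted p = 0.116). The estimate for GFPLow was 1.49 against either WT library alone.

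**Figure D1:**
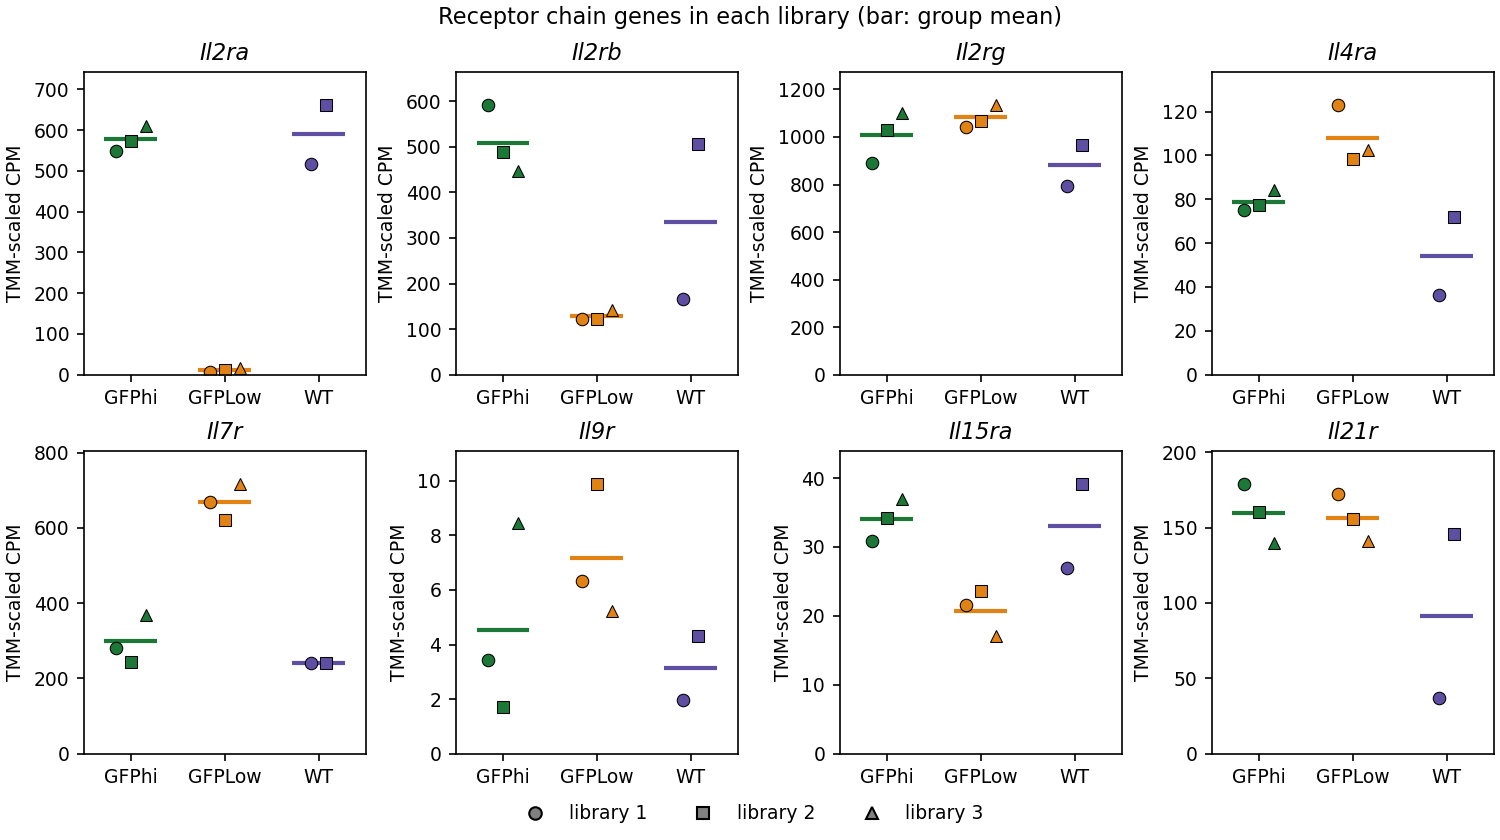
TMM-scaled CPM (vertical axes, linear and starting at 0) of the 8 receptor chain genes in each library, by group, with bars at the group means. Il2ra is near the floor in the 3 GFPLow libraries, Il7r is highest there, and WT library 1 (circle) lies below WT library 2 (square) in 7 of the 8 panels, Il7r being the exception.

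Il15ra encodes the alpha chain that binds IL-15 and presents it to neighbouring cells (ENSMUSG00000023206, chromosome 2, 11705290 to 11734317). It was at 30.9, 34.3 and 37.0 CPM in GFPhi, at 21.6, 23.6 and 17.1 CPM in GFPLow, while WT stood at 26.9 and 39.2 CPM. Every GFPLow library was below every FoxP3+ library. The difference of GFPhi from GFPLow was 0.71 ± 0.22 on the log2 scale (95% interval 0.22 to 1.21) and was not called (adjusted p = 0.182). It was called in 5 of the 15 alternative analyses, among them GFPhi and GFPLow fitted alone (adjusted p = 0.0176 in edgeR's test) and DESeq2 (adjusted p = 0.0315). The call was also made without either WT library (0.71 without library 1). It was not made with the replicate number as a block (adjusted p = 0.334 in edgeR's test) or with any GFPhi or GFPLow library left out. GFPLow against WT stood at -0.67 ± 0.24 (adjusted p = 0.141), at -0.91 against WT library 2 alone, and at -0.35 against WT library 1 alone. DESeq2 called it with both WT libraries (adjusted p = 0.0422).

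Il4ra encodes the ligand-binding chain for IL-4, which also forms the IL-13 receptor (ENSMUSG00000030748, chromosome 7, 125552120 to 125579474). It was at 75.3, 77.3 and 84.4 CPM in GFPhi, at 123.2, 98.5 and 102.5 CPM in GFPLow, while WT stood at 36.2 and 72.0 CPM. The 3 groups did not overlap, GFPLow being highest and WT lowest, although WT library 2 was within 5 CPM of the GFPhi range. GFPhi against GFPLow gave -0.45 ± 0.25 (SE), which was not called (adjusted p = 0.617). It was called in 4 of the 15 alternative analyses, among them GFPhi and GFPLow fitted alone (adjusted p = 0.0252 in edgeR's test). The call was also made without either WT library (-0.46 without library 1). It was not made by DESeq2 (adjusted p = 0.497), with the replicate number as a block (adjusted p = 0.779 in edgeR's test), or with any GFPhi or GFPLow library left out. GFPLow against WT gave 0.998 ± 0.29 (adjusted p = 0.108), with 1.60 against WT library 1 alone and 0.59 against WT library 2 alone. DESeq2 called it with both WT libraries (adjusted p = 0.0139).

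Il21r, the IL-21 receptor chain of follicular helper T cells, B cells and others (ENSMUSG00000030745, chromosome 7, 125603429 to 125633570), was at 179.1, 160.6 and 139.6 CPM in GFPhi, with 172.1, 155.4 and 141.0 CPM in GFPLow. The 2 transgenic groups overlapped fully (log2 fold change 0.03, 95% interval -0.94 to 1.002). In WT it was at 36.7 CPM in library 1 and 145.5 CPM in library 2. The estimate for GFPhi was 2.15 against WT library 1 alone and 0.13 without that library. GFPLow stood 0.78 ± 0.48 above WT without a call (adjusted p = 0.33), at 2.11 against WT library 1 alone and at 0.11 against WT library 2 alone.

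Il9r, the IL-9 receptor chain (ENSMUSG00000020279, chromosome 11, 32187541 to 32200279), was the least abundant of the 8. It was at 3.45, 1.69 and 8.45 CPM in GFPhi, at 6.33, 9.90 and 5.23 CPM in GFPLow, with 1.98 and 4.31 CPM in WT, from 61 to 487 reads per library. Its range within GFPhi was wider than any difference between group means, and no comparison was called (adjusted p 0.312 to 0.914 in edgeR's test). Every GFPLow library was above both WT libraries. For GFPLow the estimate was 1.88 against WT library 1 alone and 0.74 against WT library 2 alone, and for GFPhi 1.22 and 0.07, none of them called.

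**Figure D2:**
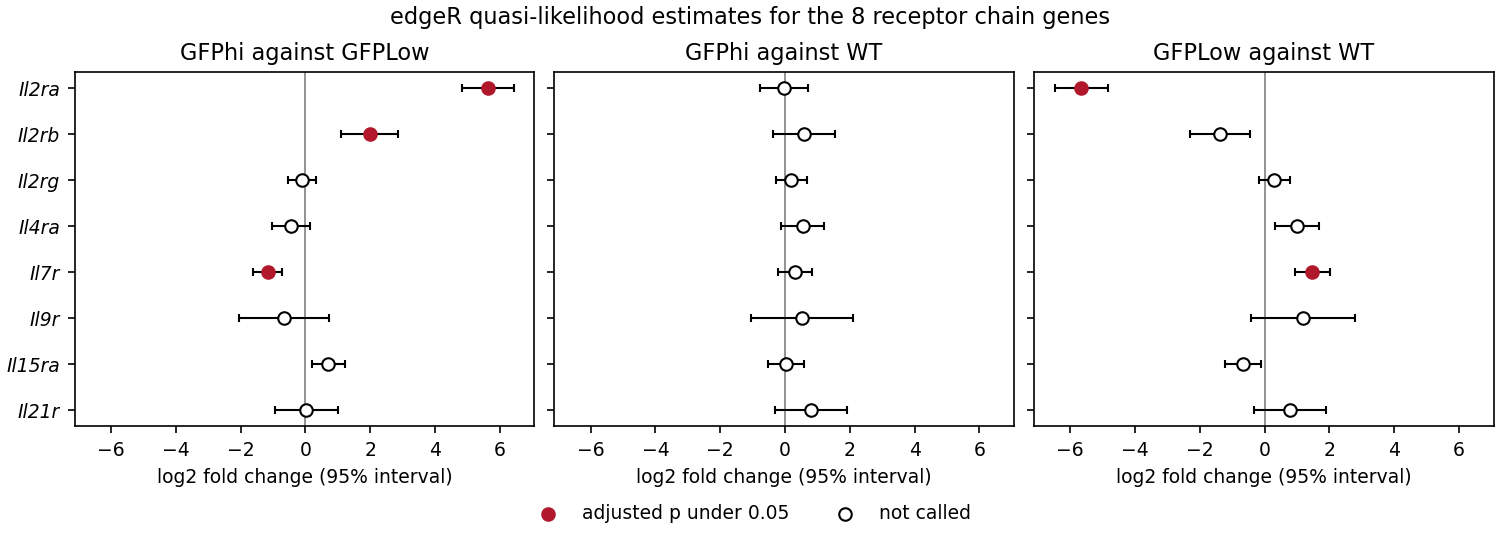
Log2 fold changes (horizontal axis) of the 8 genes in the 3 comparisons, with 95% intervals as lines. Filled red points passed an adjusted p of 0.05: Il2ra, Il2rb and Il7r in GFPhi against GFPLow, and Il2ra and Il7r in GFPLow against WT.

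In GFPhi against GFPLow, 2 of the 8 genes were called higher and 1 lower, where 2.26% of all genes tested were called (1.63% higher and 0.626% lower). In 5 of the 8 no GFPhi library overlapped a GFPLow library, against 30% of all genes (16% with GFPhi above and 14% with GFPhi below). At an unadjusted p under 0.05 stood 4 of the 8, against 11.6% of all genes. In GFPLow against WT, 1 gene was called higher and 1 lower, against 3.3% of all genes (1.08% up and 2.23% down). The libraries did not overlap in 7 of the 8, against 40.3% of all genes (21.1% with GFPLow above and 19.2% with GFPLow below), and 5 of the 8 had an unadjusted p under 0.05, against 25% of all genes. These comparisons share the GFPLow libraries, so the opposite signs of a gene in them are not separate results. The 8 genes were chosen with earlier results of these data known, so their counts are a description. The median log2 fold change of the 8 genes was -0.04 in GFPhi against GFPLow, where that of all genes was 0.01, and 0.54 in GFPLow against WT, where that of all genes was 0.02.

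GFPhi set against WT asks how FoxP3+ cells with induced TIM-3 differ from those without it. None of the 8 genes was called, with 0% of all genes called by edgeR, 13.7% of them at an unadjusted p under 0.05, and none of the 8 among these. DESeq2 called 320 genes, none of them among the 5 of these 8 to which it gave an adjusted p, and it gave none to Il4ra, Il9r and Il15ra. Havcr2, which the gate selects, was not called either (adjusted p = 0.121), so the lack of a call does not show equal levels. The estimate was -0.03 (95% interval -0.76 to 0.70) for Il2ra, 0.60 (-0.36 to 1.56) for Il2rb, 0.20 (-0.28 to 0.67) for Il2rg and 0.31 (-0.20 to 0.82) for Il7r. It was 0.04 (-0.51 to 0.59) for Il15ra, 0.55 (-0.11 to 1.20) for Il4ra, 0.81 (-0.30 to 1.92) for Il21r and 0.52 (-1.06 to 2.1) for Il9r. Libraries did not overlap for Il4ra and Il7r, both higher in GFPhi, where 28.1% of all genes did not overlap (15.6% with GFPhi above and 12.6% below). Against WT library 2 alone the estimates of all 8 genes ran from -0.20 for Il15ra to 0.31 for Il7r. Against WT library 1 alone they ran from 0.185 for Il2ra to 2.15 for Il21r, with 1.65 for Il2rb and 1.15 for Il4ra. The median of all genes was there itself at 0.38.

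Compared per kilobase of merged exons, Il2rg was the most abundant chain in every library, at 373.7 to 461.8 CPM per kb in GFPhi, 437.5 to 475.8 in GFPLow and 333.1 to 405.1 in WT. In GFPhi it was followed by Il2rb (104.2 to 138.3) and Il2ra (96.2 to 106.9), which overlapped, then Il7r (52.4 to 79.1) and Il21r (42.0 to 53.9), which also overlapped, then Il4ra, Il15ra and Il9r. In GFPLow Il7r came next, at 133.3 to 153.9 CPM per kb, followed without overlap by Il21r (42.4 to 51.8), Il2rb (28.3 to 33.4), Il4ra (16.4 to 20.5) and Il15ra (3.85 to 5.31). Il2ra was then seventh, at 1.27 to 2.85 CPM per kb, overlapping Il9r at 1.06 to 2. In WT the order was Il2rg, Il2ra, Il2rb, Il7r, Il21r, Il4ra, Il15ra and Il9r, with overlap between Il2ra and Il2rb, Il2rb and Il7r, Il21r and Il4ra, and Il4ra and Il15ra.

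As a share of the summed CPM per kb of the 8 genes, Il2ra made up 13.0% to 13.1% in GFPhi, 0.185% to 0.390% in GFPLow, and 16.8% and 15.3% in WT. Il7r made up 6.83% to 9.66% in GFPhi, 19.6% to 21.1% in GFPLow, and 9.66% and 6.80% in WT. Shares of Il2rg were 50.3% to 56.5% in GFPhi, 63.5% to 65.6% in GFPLow, and 62.0% and 53.6% in WT. The level of Il2ra over that of Il7r, both per kb, was 1.35 to 1.91 in GFPhi, 0.00887 to 0.0185 in GFPLow, and 1.74 and 2.25 in WT. Of this pair, Il2ra was the higher in each FoxP3+ library and Il7r in each GFPLow library. Il2ra over Il2rg was 0.232 to 0.257 in GFPhi, 0.00291 to 0.00598 in GFPLow, and 0.272 and 0.286 in WT. Il2rb over Il2rg was 0.226 to 0.370 in GFPhi, 0.0637 to 0.0701 in GFPLow, and 0.116 and 0.292 in WT. The summed level of the 8 genes varied less, at 742.8 to 818 CPM per kb in GFPhi, 681.7 to 730.3 in GFPLow, and 537.7 and 756.2 in WT libraries 1 and 2.

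**Figure D3:**
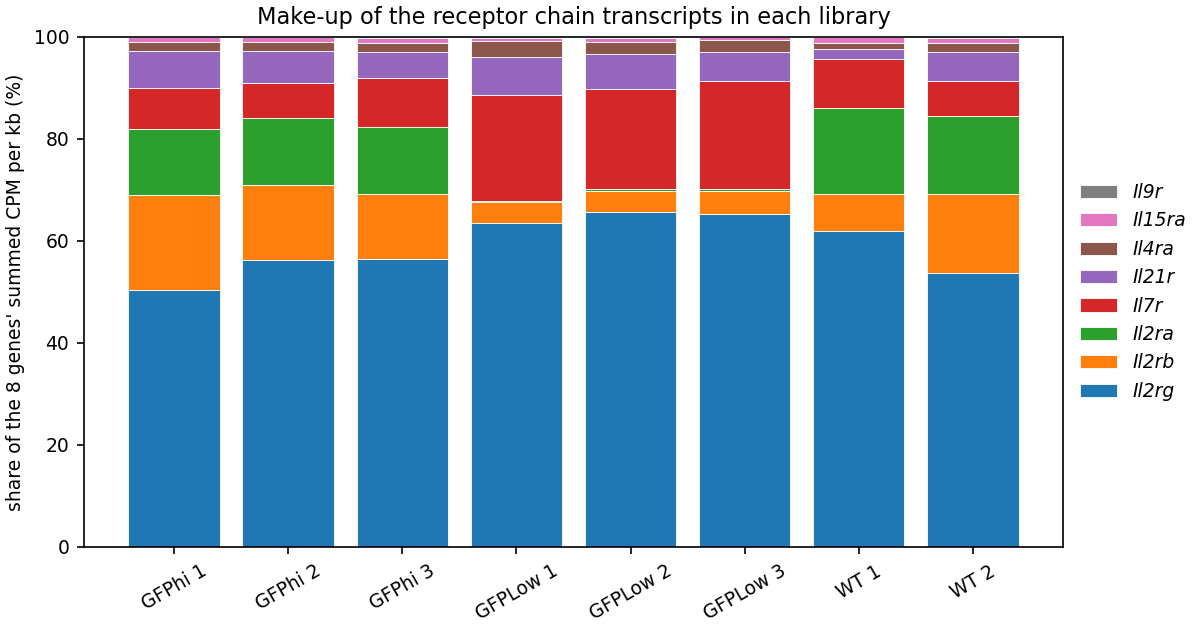
Share of each gene (vertical axis, percent) in the summed CPM per kb of merged exons of the 8 receptor chain genes, 1 bar per library. Il2ra fills 13.0% to 16.8% of the bars of GFPhi and WT and under 0.4% of those of GFPLow, where Il7r fills 19.6% to 21.1%.

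Of these 8 genes, 4 lie as neighbouring pairs. Il15ra lies 12.1 kb beyond Il2ra on chromosome 2, on the same strand, and was at 30.9 to 37.0 CPM in GFPhi against 17.1 to 23.6 CPM in GFPLow, beside a 49.4-fold difference of Il2ra. Fbh1, a DNA helicase gene on the other side of Il15ra, was at 38.9 to 43.0 CPM in GFPhi, 32.0 to 38.5 CPM in GFPLow, and 21.2 and 43.0 CPM in WT, with no call in any comparison. Il21r lies 24.0 kb beyond Il4ra on chromosome 7, also on the same strand. In GFPhi against GFPLow the estimates for this pair were -0.45 for Il4ra and 0.03 for Il21r, neither called. Gtf3c1, a subunit gene of the general factor TFIIIC next to Il21r, was at 22.6 to 28.3 CPM in GFPhi, 25.7 to 26.4 CPM in GFPLow, and 8.60 and 26.1 CPM in WT, low in WT library 1 as Il21r was. Med12, a Mediator subunit gene beside Il2rg, was likewise at 4.93 CPM in WT library 1 and 32.4 to 41.8 CPM elsewhere.

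Other genes of the pathway were taken from lists of 59 genes, 55 of which were tested. Calls for them come from the main fit alone. Unlike those of the receptor genes, they were not followed through the alternative analyses. In GFPhi against GFPLow 6 genes were called higher and 3 lower, with GFPLow set against WT 3 up and 6 down, and with GFPhi set against WT none. Of all genes tested, 1.63% were called higher and 0.626% lower in GFPhi against GFPLow, and 1.08% higher and 2.23% lower in GFPLow against WT. The lists were chosen with earlier results of these data known. Their counts beside these shares are a description and no test of the lists. Il2, which encodes the ligand of the Il2ra chain, was at 0.994, 0.866 and 0.482 CPM in GFPhi, at 2.28, 5.57 and 3.14 CPM in GFPLow, while WT stood at 3.34 and 0.586 CPM. GFPLow was above GFPhi in every library (-2.23 ± 0.71 for GFPhi against GFPLow, SE), without passing the test (adjusted p = 0.21). Il21 was at 58.7 CPM in GFPLow library 2 and at 0 to 8.54 CPM in the other 7 libraries, Il4 at 3.17 to 9.64 CPM in GFPhi, 6.16 to 11.9 CPM in GFPLow, and 33.0 and 8 CPM in WT. Il15 was at 0.866 to 1.48 CPM in GFPhi, 0.112 to 0.569 CPM in GFPLow, and 4.02 and 0 CPM in WT. Of the 8 ligand genes 5 were tested and none was called, and Il9 had no count in any library. Of the partner chains, Crlf2, which joins Il7r in the TSLP receptor, was at 8.41 to 12.6 CPM in GFPhi, 7.74 to 8.72 CPM in GFPLow, and 6.55 and 10.7 CPM in WT, with no call. Il13ra1, which joins Il4ra, was at 2.25 CPM or less in every library and was not called either.

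None of the 9 JAK and STAT genes was called in any comparison. Jak1, the kinase bound to the ligand-binding chains, was at 730.8 to 769.7 CPM in GFPhi, 899.9 to 948.1 CPM in GFPLow, and 537.6 and 715.6 CPM in WT (-0.31 ± 0.18 for GFPhi against GFPLow, adjusted p = 0.653). Stat5a was at 52.7 to 73.3 CPM in GFPhi, 30.4 to 49.5 CPM in GFPLow, and 26.5 and 62.2 CPM in WT (0.52 ± 0.34, adjusted p = 0.725). Tyk2 differed less (0.23 ± 0.18, adjusted p = 0.829). Jak3, the kinase bound to the gamma chain, was at 61.5 to 100.4 CPM in the 6 transgenic libraries and in WT at 3.89 CPM in library 1 and 72.9 CPM in library 2.

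Of 9 inhibitors of the pathway, 2 rose in GFPhi against GFPLow, where 1.63% of all genes were called higher. The same 2 fell in GFPLow against WT, where 2.23% of all genes were called lower. Both comparisons share the GFPLow libraries, and the list was chosen with earlier results of these data known. Cish, a feedback inhibitor of the IL-2 receptor, was at 245.7, 216.5 and 237.4 CPM in GFPhi, 28.5, 26.6 and 43.3 CPM in GFPLow, and 85.9 and 223.3 CPM in WT. It rose in GFPhi against GFPLow (2.83 ± 0.37, adjusted p = 0.00931) and fell in GFPLow against WT (-2.24 ± 0.39, adjusted p = 0.0225). Socs2, a related inhibitor of cytokine receptors, was at 79.0, 99.2 and 92.7 CPM in GFPhi, 4.48, 4.90 and 14.5 CPM in GFPLow, and 156.0 and 97.2 CPM in WT (3.50 ± 0.49, adjusted p = 0.011, and -3.99 ± 0.52, adjusted p = 0.00737). For both genes the GFPLow libraries lay below all others. Of the 9 inhibitor genes the remaining 7 were not called, among them the phosphatase gene Dusp5 (1.07 ± 0.26, adjusted p = 0.0871) and Socs1 (1.38 ± 0.51, adjusted p = 0.31) in GFPhi against GFPLow. The median of the 9 was 0.53 in GFPhi against GFPLow, 0.59 in GFPhi against WT and -0.41 in GFPLow against WT, where those of all genes were 0.01, 0.08 and 0.02.

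Of 20 genes known to respond to IL-2 or STAT5, 4 rose in GFPhi against GFPLow and none fell, where 1.63% of all genes were called higher. The median of the 20 was 0.83, where that of all genes was 0.01. These 4 were Ctla4 (2.83 ± 0.20, adjusted p = 0.00127), an inhibitory receptor gene of Treg cells, the costimulatory TNF receptor genes Tnfrsf4 (2.86 ± 0.25) and Tnfrsf18 (1.73 ± 0.25), and Il1rl1 (2.61 ± 0.46, adjusted p = 0.0289), which encodes the IL-33 receptor. All 4 are also genes of the Treg programme, so they are not separate from the FoxP3 gate. The list was chosen with earlier results of these data known, so its counts and medians are a description. In GFPLow against WT 4 of the 20 fell, Ctla4, Tnfrsf4, Tnfrsf18 and the survival gene Bcl2 (-1.04 ± 0.21, adjusted p = 0.0387), where 2.23% of all genes were called lower, and the median was -0.67, where that of all genes was 0.02. The remaining 15 of the 20 were not called in either comparison, among them Pim2, a survival kinase gene, which was at 61.2 to 87.3 CPM in GFPhi, 134.6 to 169.5 CPM in GFPLow, and 13.3 and 55.3 CPM in WT.

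A list of 10 genes tied to Il7r in resting T cells also held Gfi1, a repressor of Il7r. The list was chosen with earlier results of these data known. Of these 10 genes, 3 fell in GFPhi against GFPLow, where 0.626% of all genes were called lower. The same 3 rose in GFPLow against WT, where 1.08% of all genes were called higher. They were Tcf7, Lef1 and Satb1, regulators of naive T cells. Tcf7 was at 184.8, 198.3 and 183.9 CPM in GFPhi, 631.9, 626.0 and 510.8 CPM in GFPLow, and 192.5 and 194.3 CPM in WT, a change of -1.64 ± 0.17 in GFPhi against GFPLow (adjusted p = 0.00346). Lef1 (-1.54 ± 0.22) and Satb1 (-1.47 ± 0.15) differed by about as much. Foxo1, whose product binds the Il7r gene, was at 142.7 to 154.8 CPM in GFPhi, 164.0 to 184.3 CPM in GFPLow, and 111.0 and 167.1 CPM in WT, and was not called. Klf2, a regulator of trafficking, was not called either. Gfi1, a repressor of Il7r in mouse T cells, was at 18.3, 11.03 and 9.34 CPM in GFPhi, 7.01, 2.91 and 2.96 CPM in GFPLow, and 18.6 and 13.6 CPM in WT, every GFPLow library being below the others (1.59 ± 0.44 for GFPhi against GFPLow, adjusted p = 0.139). The median of the 10, Gfi1 included, was -0.72 in GFPhi against GFPLow and 0.77 in GFPLow against WT, where those of all genes were 0.01 and 0.02.

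**Figure D4:**
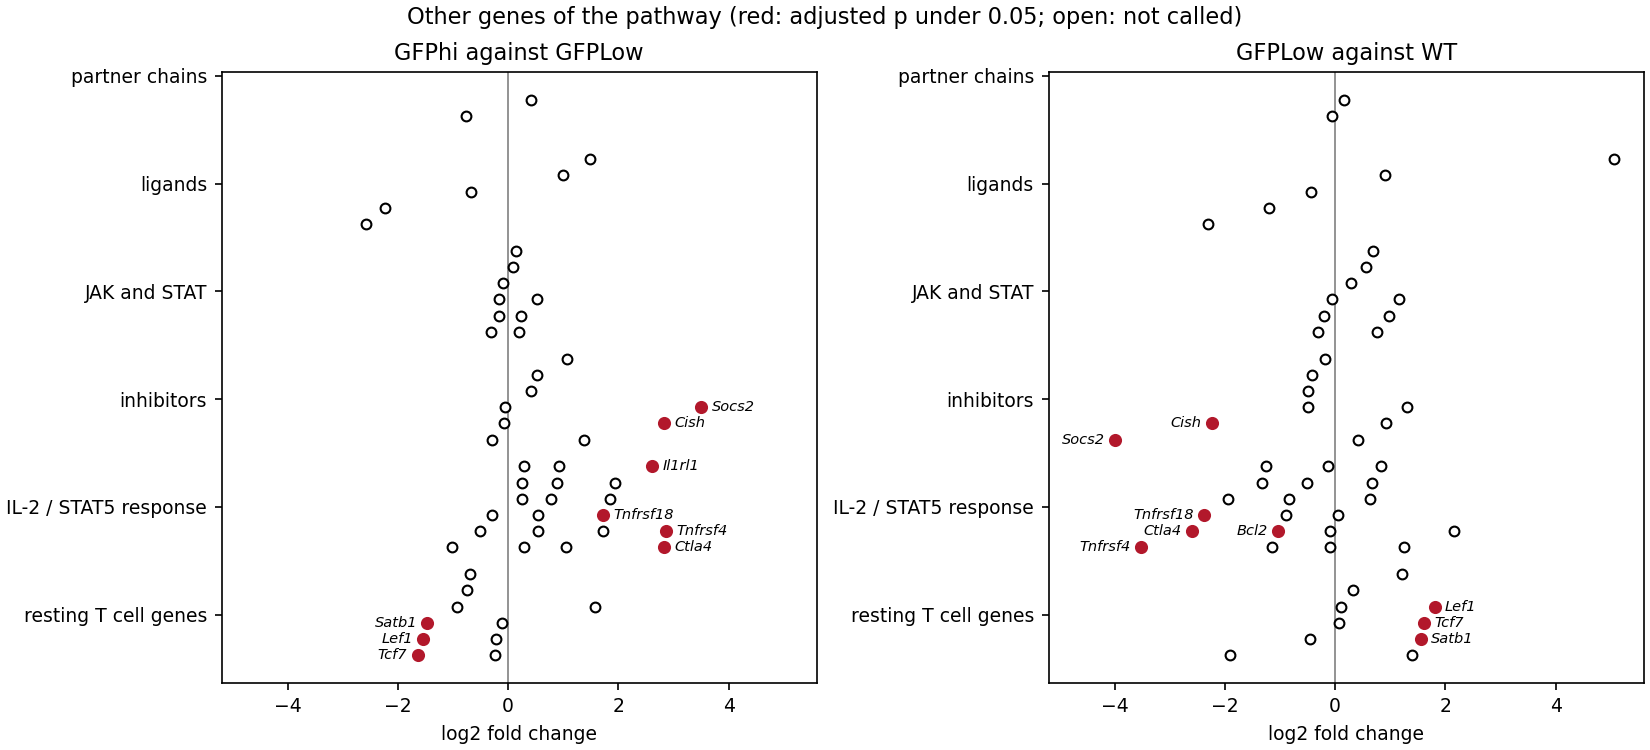
Log2 fold changes (horizontal axes) of the other pathway genes tested, by list (rows, with points spread vertically for legibility), in GFPhi against GFPLow and in GFPLow against WT. Red points with names passed an adjusted p of 0.05, and they are Socs2 and Cish among the inhibitors, 4 response genes in each panel, and Tcf7, Lef1 and Satb1 among the genes of resting T cells.

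The genes whose pattern was most like that of a called member were found by Pearson's r of log2 CPM over the 8 libraries, among 8065 genes, as a description of libraries that share groups and depth. Il2ra was most like Ccdc50 (r = 0.997), Lrrc32 (0.994), a surface docking receptor for latent TGF-beta, and Mctp1 (0.994). Lrrc32 was at 149.9 to 172.6 CPM in GFPhi, 0.822 to 3.02 CPM in GFPLow, and 74.5 and 185.4 CPM in WT. Il2rb was most like Cyfip1 (0.998), a regulator of actin assembly, Slamf1 (0.997), a receptor of the SLAM family, and Tnfrsf1b (0.991), the TNF receptor TNFR2. Each of these 3 was also lower in WT library 1 than in library 2, with Tnfrsf1b at 124.4 to 137.1 CPM in GFPhi, 41.1 to 53.3 CPM in GFPLow, and 61.6 and 128.0 CPM in WT. Il7r was most like Klf13 (0.988), Sgk1 (0.978) and Sit1 (0.978). Sgk1, a kinase gene, was at 20.8 to 26.9 CPM in GFPhi, 164.0 to 234.3 CPM in GFPLow, and 11.9 and 16.1 CPM in WT.

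Among the 8 genes, r over the 8 libraries was 0.849 between Il2ra and Il2rb and 0.855 between Il2ra and Il15ra, and -0.945 between Il2ra and Il7r. Il4ra and Il21r, low together in WT library 1, had r = 0.863, and Il4ra and Il2rg 0.852. Markers of other cells that carry these receptors were low or differed between groups. B cells carry Il4ra and Il21r, and the 6 B cell markers listed summed to 148.4 to 168.0 CPM in GFPhi, 20.98 to 30.6 CPM in GFPLow, and 131.2 and 183.0 CPM in WT, nearly all from Cd74 and Cd79b. Of the 4 tested, 2 were called higher in GFPhi than in GFPLow. The 2 CD8 markers summed to 19.7 to 23.7 CPM in GFPhi, 21.5 to 32.8 CPM in GFPLow, and 37.7 and 16.2 CPM in WT. The 6 myeloid markers summed to 4.12 to 44.5 CPM in GFPhi, 3.07 to 250.3 CPM in GFPLow, and 14.5 and 34.4 CPM in WT, highest in GFPLow library 3. The part of these cells in the receptor genes was not tested.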

How the data were processed

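The deposited table held unnormalized whole-number counts for each Ensembl gene in 8 libraries. Kits were SMART-Seq HT and Nextera XT, per the labels' protocols. HISAT2 2.1.0, SAMtools 1.9, HTSeq 0.11.2, edgeR, R 4.0 and GRCm38 are named in the submitters' processing notes. For their roles, the annotation and strand setting the text is silent (not given in the sources used here), so reads of overlapping genes cannot be told apart. Symbols, positions and exon lengths came from GENCODE vM21 (GRCm38), which matched 54808 of 54837 identifiers.

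Low genes were dropped with filterByExpr, and TMM scaled the libraries. All 8 libraries entered one edgeR 4.0.16 fit by group (R 4.3.3, limma 3.58.1, robust glmQLFit, 5 residual degrees of freedom). Contrasts were tested two-sided with the quasi-likelihood test, adjusted by Benjamini-Hochberg over all 18851 genes, with a threshold of 0.05. The 95% intervals use the SE and the test's degrees of freedom. Correlations used log2 CPM with a prior count of 2. The model was run on simulated counts in which all libraries shared the same spread for each gene. No simulated library stood apart as WT library 1 did, so that run does not cover such a library. Python 3.11.15, pandas 2.3.3 and matplotlib 3.10.9 served for sequences and figures, and DESeq2 1.42.0 as an alternative.

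The receptor genes and lists were chosen with earlier results of these data known. Of each pathway list, at most 4 genes with the smallest adjusted p in GFPhi against GFPLow were named by rule, except 1 that is not reported here. Other pathway genes (Jak3, Il9, Pim2, Foxo1, Klf2 and Bcl2) were chosen after their values were seen. For each called member the 3 most similar genes by r were named. No tested neighbour outside the 8 receptor genes was called. Of those neighbours, Fbh1, Gtf3c1 and Med12 were chosen after their values were seen. Without molecular identifiers, reads are not independent molecules. Dendritic, plasma, platelet and erythroid markers were also listed, and they summed to at most 9.15, 190.2, 40.6 and 13.4 CPM in any library, with no call. The 7 T cell markers summed to 5888 CPM or more in every library.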

Additional observations from a re-analysis of the deposited data

How the results depend on the processing

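Over all genes, edgeR's calls in GFPhi against GFPLow (426) moved to 1375 with DESeq2, 2105 with only the libraries compared and 3246 with DESeq2 without WT library 1, an analysis added after that library was seen to stand apart. They ran from 105 to 1984 with 1 library left out. In GFPhi against WT (0) they were 1 with no filter, 320 with DESeq2, 72 with DESeq2 without WT library 1, and 0 to 8234 with 1 library left out. In GFPLow against WT (623) they were 3243 with DESeq2, 33 with only the libraries compared, 2446 with DESeq2 without WT library 1, and 213 to 9002 with 1 library left out. Of the 8 receptor genes, 3 were called in GFPhi against GFPLow, 4 with DESeq2, which added Il15ra, 5 with only the libraries compared, 5 with DESeq2 without WT library 1, and 1 to 5 with 1 library left out. In GFPhi against WT none was called except without WT library 2 (0 to 4). In GFPLow against WT 2 were called, 5 with DESeq2, 1 with only the libraries compared, 5 with DESeq2 without WT library 1, and 1 to 5 with 1 library left out. Other scaling changed none of these calls of receptor genes. With 1 WT library left, it was assumed to vary like the other groups. The cause of these changes was not tested.

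With the replicate number as a block, 182 genes were called in GFPhi against GFPLow, 0 in GFPhi against WT and 158 in GFPLow against WT, and of the receptor genes 1, 0 and 1, Il2ra. The calls of Il2rb and Il7r in GFPhi against GFPLow were lost (1.997, adjusted p = 0.113, and -1.184, adjusted p = 0.0719), as was that of Il7r in GFPLow against WT (1.364, adjusted p = 0.0811). Deviations from the group means correlated by 0.067, 0.066 and 0.149 between GFPhi and GFPLow libraries of the same number. Each library correlated best with its own number, a hint from the data and not the design. Both libraries numbered 3 held Xist (236.7 CPM in GFPhi and 183.8 CPM in GFPLow) and no reads of the Y-linked gene Ddx3y, while those numbered 1 and 2 held Ddx3y at 193.8 to 228.5 CPM.

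Estimates that changed sign were small, except that of Il9r in GFPhi against WT, which was 0.52 in the main fit. For Il21r in GFPhi against GFPLow they were -0.057 without GFPhi library 1 and -0.036 without GFPLow library 3, in a range from -0.057 to 0.121 with 1 library left out. In GFPhi against WT, Il15ra was at -0.083 with upper quartile scaling, -0.20 without WT library 1 (also -0.20 by DESeq2) and -0.022 without GFPhi library 3, in a range from -0.203 to 0.365. Il2ra was there at 0.003 with no filter and without GFPhi library 1, and at 0.185 without WT library 2 (range -0.198 to 0.185), and Il9r at -0.295 without GFPhi library 3 (range -0.295 to 1.221).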
